A study of Arabidopsis thaliana with 9 samples.

Results

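The genes of ammonium assimilation and asparagine synthesis were followed in whole *Arabidopsis thaliana* seeds at 12 h of imbibition. The set comprised 10 of the 33557 genes in the authors' deposited table, chosen by gene identifier. Glutamine synthetase was represented by 5 genes, GLN1-1 (AT5G37600), GLN1-2 (AT1G66200), GLN1-3 (AT3G17820), GLN1-4 (AT5G16570) and GLN2 (AT5G35630). The others were the glutamate synthase genes GLU1 (AT5G04140) and GLT1 (AT5G53460), the asparagine synthetase genes ASN1 (AT3G47340) and ASN2 (AT5G65010), and the glutamate dehydrogenase gene GDH2 (AT5G07440). The remaining 5 genes of the same enzyme families, GLN1-5 (AT1G48470), GLU2 (AT2G41220), GDH1 (AT5G18170), GDH3 (AT3G03910) and ASN3 (AT5G10240), are given beside them. The samples were 9 RNA libraries, 3 biological replicates each of Col-0 wild type (WT), the loss-of-function mutant *nac25* (KO2) and the loss-of-function mutant *nac1L* (KO1), each mutant lacking 1 transcription factor of the NAC family. The labels name no allele and no double mutant, and all seeds were taken as whole seeds at the same time, so that embryo, endosperm and seed coat were mixed.

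Ammonium reaches a seedling's amino acids through a short cycle. Glutamine synthetase joins ammonium to glutamate to make glutamine, and glutamate synthase (GOGAT) returns the amide nitrogen to 2-oxoglutarate as glutamate, with electrons from ferredoxin or from NADH. Asparagine synthetase passes the amide of glutamine to aspartate, and the asparagine made is a nitrogen-rich compound for storage and transport. Mitochondrial glutamate dehydrogenase mainly releases ammonium again and hands the carbon back to respiration. In imbibed seeds the ammonium comes from stored protein and, where nitrate is present, from its reduction to nitrite and ammonium.

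The values are those of the authors' Cuffdiff comparisons: a log2 fold of the second genotype over the first, a p-value and an adjusted q-value, with no level per library. A gene was called where q was at or below 0.05; 0.000463 is the smallest q the table holds. Of the 10 members 8 were tested in either mutant against WT, and GLN1-4 and GLU1 had too few reads for a test in any comparison. GLN2 and GLN1-2 were tested against WT and not between the mutants, where both genotypes had the lower values. Their tests were thus reached through the reads in WT. Depth and the spread between replicates are unknown. As a guide to error, the 95% interval that each fold and its p imply under a normal distribution is given, unadjusted for the number of genes. It is wider than needed where p stands at its floor of 5e-05.

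Across all tested genes the median log2 fold was -0.07 in *nac1L* against WT, -0.27 in *nac25* against WT and -0.20 in *nac25* against *nac1L*, and values relative to these medians, with p recomputed (centring), are given where they matter. Where the deposited p stands at its floor the recomputed q errs high. A call lost after centring there does not show that the gene stayed at the median. In the authors' deposited table the targeted genes were lowest in their own mutants, NAC25 with a log2 fold of -3.97 in *nac25* and NAC1L, taken as AT3G12977, with -4.61 in *nac1L*. Each was also below WT in the other mutant, NAC25 with -2.66 in *nac1L* and NAC1L with -1.89 in *nac25* in the authors' deposited table, and neither gene had enough reads for a test in any comparison. Of 4 seed markers 3 (CRA1, CRC and OLEO1) had too many reads for a test, and both seed coat markers (BAN and TT2) had too few. The fourth seed marker, EM6, was called higher in *nac25* against WT (log2 0.70, q = 0.000463) and against *nac1L* (log2 0.37, q = 0.0413), and had a log2 fold of 0.33 in *nac1L* against WT (q = 0.0671) in the authors' deposited table. Both tested endosperm markers (EXPA2 and MAN7) and the 3 embryo markers (LTP1, PDF1 and SHR) were called lower in each mutant in the authors' deposited table. Of all tested genes 18.9% were called lower in *nac1L* and 32.8% in *nac25*. In the authors' deposited table the log2 folds of the endosperm markers were -4.21 and -1.73 in *nac1L* and -4.88 and -2.06 in *nac25*, and those of the embryo markers ran from -2.78 to -0.87 and from -3.25 to -0.50. The call of PDF1 in *nac25* was lost after centring, and the third endosperm marker, EPR1, had too many reads for a test. SHR had too few reads for a test between the mutants, so its calls against WT were reached through the reads in WT. Fewer cells of a type and less RNA per cell cannot be told apart in whole seeds, and the part of these markers' tissues in the results below was not tested.

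In *nac1L* against WT, 5 of the 8 tested members were called, where 28.5% of all tested genes were. ASN1 and GLT1 were higher, and GLN2, ASN2 and GDH2 were lower. The 2 higher calls stand beside 9.62% of all tested genes called higher, and the 3 lower calls beside 18.9% called lower. The median log2 fold of the tested members was -0.30 against -0.07 for all tested genes. In *nac25* against WT, 7 of 8 were called, beside 39.0% of all tested genes. ASN1 and GLT1 were again higher, beside 6.25% of all tested genes called higher, and GLN2, GLN1-2, ASN2, GDH2 and GLN1-1 were lower, beside 32.8% called lower. The median of the tested members was -0.65, against -0.27 for all tested genes. Both comparisons use the same WT libraries. GLN2 and GLN1-2 reached their tests through the reads in WT, so they could hardly be called other than lower. These counts and medians include them. After centring the calls were 2 higher and 2 lower in *nac1L*, without GDH2, and 2 higher and 4 lower in *nac25*, without GLN1-1. Over all tested genes the centred calls were 2269 higher and 2775 lower of 18233 in *nac1L*, and 2861 and 2681 of 18155 in *nac25*.

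**Figure D1:**
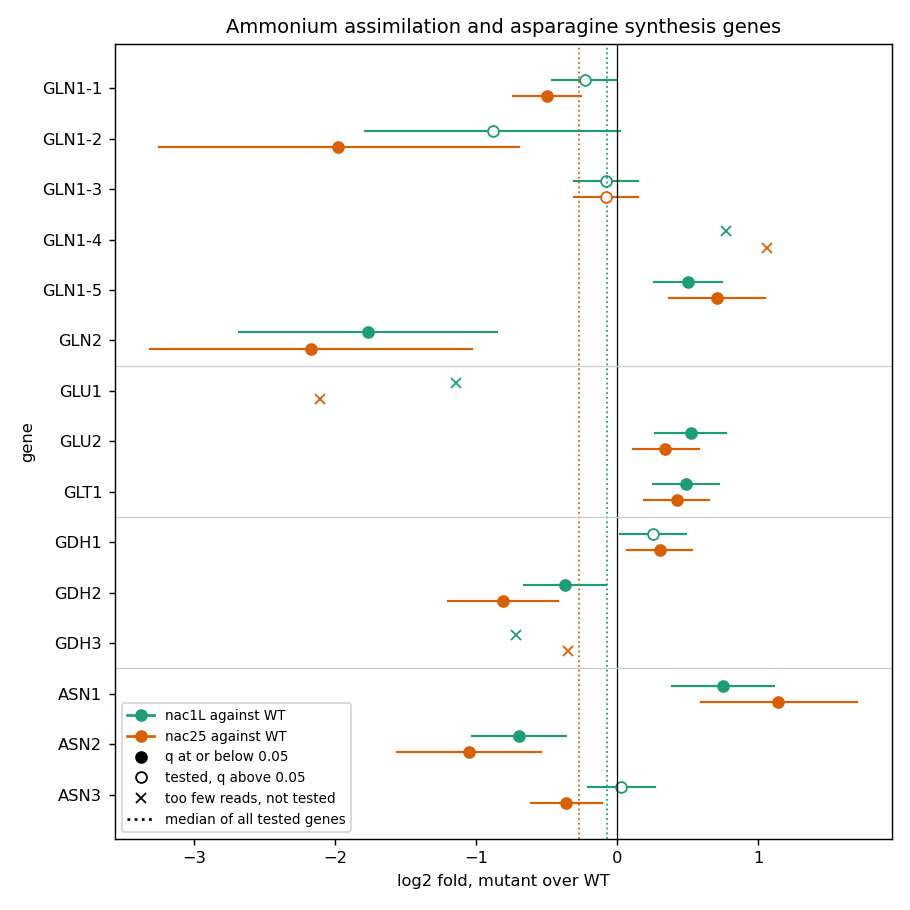
Log2 fold of each mutant over WT (x axis) for the 10 members and the other 5 family genes (y axis), with the 95% interval implied by the deposited fold and p as a horizontal line. Filled circles have q at or below 0.05, open circles a larger q, and crosses had too few reads for a test; dotted lines mark the median of all tested genes (-0.07 and -0.27). GLN2, GLN1-2 and ASN2 lie on the left, and ASN1, GLT1, GLU2 and GLN1-5 on the right.

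Glutamine synthetase genes did not move as a group. GLN2, the plastid isoform that in leaves recaptures photorespiratory ammonium, showed the largest reduction among the tested members in each mutant. By the authors' deposited table GLN2 was 3.41-fold lower in *nac1L* (log2 -1.77, interval -2.68 to -0.85, q = 0.00124). In *nac25* the reduction in the authors' deposited table was 4.50-fold (log2 -2.17, interval -3.31 to -1.03, q = 0.00159). A lower fold than that of GLN2 was found for 2.91% of tested genes in *nac1L* and 3.22% in *nac25*.

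The cytosolic isoforms ranged from lower to higher. GLN1-2, a low-affinity enzyme, was 3.93-fold lower in *nac25* (log2 -1.98, interval -3.25 to -0.70, q = 0.0129) in the authors' deposited table. In *nac1L* its log2 fold was -0.88 with an interval of -1.79 to 0.02 (q = 0.146) in the authors' deposited table, a range that runs from no difference to a clear reduction. GLN1-1, a high-affinity enzyme, was 1.41-fold lower in *nac25* (log2 -0.50, q = 0.000463) in the authors' deposited table, but only -0.23 relative to the median of all genes, where the call was lost (q = 0.183). Its deposited p in *nac25* stood at the floor. In *nac1L* GLN1-1 had a log2 fold of -0.23 (interval -0.46 to 0.00, q = 0.13) in the authors' deposited table. GLN1-3, a low-affinity isoform, had a log2 fold of -0.08 in either mutant (interval -0.31 to 0.15 in both, q = 0.645 in *nac1L* and 0.636 in *nac25*) in the authors' deposited table. It lay near the middle of all tested genes in *nac1L*, and in *nac25*, where most genes were below WT, 34.3% had a higher fold.

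GLN1-4, which is known as a weakly expressed high-affinity isoform, had untested log2 folds of 0.77 in *nac1L* and 1.06 in *nac25* in the authors' deposited table. GLN1-5, an isoform described mainly from seeds, lay on the other side of WT from GLN2. By the authors' deposited table GLN1-5 was 1.41-fold higher in *nac1L* (log2 0.50, interval 0.26 to 0.74) and 1.63-fold higher in *nac25* (log2 0.71, interval 0.37 to 1.05), both with q = 0.000463. The ratio of GLN1-5 to GLN2, which does not depend on how libraries were scaled, was thus 4.80-fold above that of WT in *nac1L* (log2 2.26) and 7.35-fold above it in *nac25* (log2 2.88), calculated from the authors' deposited table. The standard error of these log2 ratios is at most 0.48 and 0.61 if the errors of the genes are independent, and the ratio itself has no test. GLN2 had too few reads for a test between the mutants, so the ratio rests on low values of GLN2 there. The ratios given here and below were not set in the design, and each puts a gene of higher fold over one of lower fold.

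Both glutamate synthase genes with a test, GLT1 and GLU2, were called higher in each mutant. GLT1, the NADH-dependent enzyme that serves tissues without photosynthesis, was 1.40-fold higher in *nac1L* (log2 0.49, interval 0.25 to 0.72, q = 0.000463) in the authors' deposited table. In *nac25* it was 1.34-fold higher (log2 0.42, interval 0.19 to 0.65, q = 0.0029), or 0.69 relative to the median of all genes, in the authors' deposited table. GLU2, the second ferredoxin-dependent gene and in vegetative plants the more root-expressed one, was 1.43-fold higher in *nac1L* (log2 0.52, q = 0.000463) and 1.27-fold higher in *nac25* (log2 0.34, q = 0.0216) by the authors' deposited table. GLU1, the ferredoxin-dependent enzyme that works with GLN2 in leaf chloroplasts, had untested log2 folds of -1.14 in *nac1L* and -2.11 in *nac25* in the authors' deposited table. These values lie on the same side of WT as those of GLN2, but the reads were too few to say whether GLU1 differed.

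The asparagine synthetase genes moved in opposite directions, and did so in each mutant. ASN1, the isoform known to be induced by darkness and sugar starvation, was 1.68-fold higher in *nac1L* (log2 0.75, interval 0.39 to 1.11, q = 0.000463) in the authors' deposited table. In *nac25* ASN1 was 2.21-fold higher (log2 1.14, interval 0.59 to 1.70, q = 0.000463), or 1.41 relative to the median of all genes, in the authors' deposited table. It stood near the top of the distribution, since 3.39% of tested genes had a higher fold in *nac1L* and 0.63% in *nac25*. ASN2, which is induced by light and is the reverse of ASN1 in that respect, was 1.62-fold lower in *nac1L* (log2 -0.70, interval -1.03 to -0.36, q = 0.000463) in the authors' deposited table. ASN2 stood 2.07-fold below WT in *nac25* (log2 -1.05, interval -1.56 to -0.54, q = 0.000463), or -0.78 relative to the median, in the authors' deposited table.

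ASN3, the closest relative of ASN2, had a log2 fold of 0.03 in *nac1L* (interval -0.21 to 0.27, q = 0.873) in the authors' deposited table. In *nac25* it was called lower (log2 -0.36, q = 0.0219) in the authors' deposited table, though at -0.09 relative to the median it stood close to the middle of all genes and the call was lost (q = 0.69). The ratio of ASN1 to ASN2, calculated from the authors' deposited table, was 2.72-fold above WT in *nac1L* (log2 1.45, standard error at most 0.25 if errors are independent). In *nac25* this ratio was 4.57-fold above WT (log2 2.19, standard error at most 0.38) by the authors' deposited table. A scaling factor common to all genes of a library cannot alter these ratios.

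**Figure D2:**
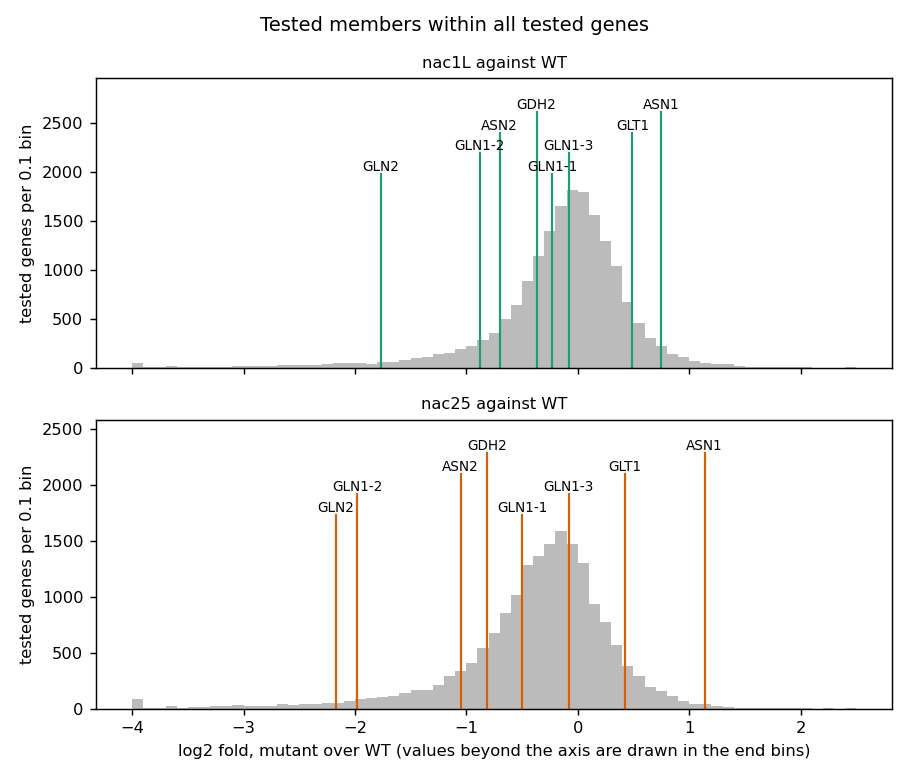
Number of tested genes (y axis) by log2 fold of mutant over WT (x axis, bins of 0.1) in *nac1L* (upper panel) and *nac25* (lower panel), with a line at the fold of each of the 8 tested members. ASN1 lies in the upper tail of both distributions, GLN1-3 near the middle and GLN2 in the lower tail.

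Of the glutamate dehydrogenase genes, GDH2 was lower in each mutant and GDH1 higher in *nac25*. GDH2, which encodes the alpha subunit of the mitochondrial enzyme, was 1.29-fold lower in *nac1L* (log2 -0.37, interval -0.66 to -0.08, q = 0.0471) in the authors' deposited table, a call lost after centring (q = 0.133). In *nac25* GDH2 was 1.75-fold lower (log2 -0.81, interval -1.20 to -0.42, q = 0.000463) in the authors' deposited table, or -0.54 relative to the median. GDH1, which encodes the beta subunit, was called higher in *nac25* (log2 0.30, q = 0.0465) and not in *nac1L* (log2 0.25, interval 0.02 to 0.49, q = 0.103) in the authors' deposited table. GDH3 had untested log2 folds of -0.72 in *nac1L* and -0.35 in *nac25* in the authors' deposited table. The ratio of GDH1 to GDH2 was 1.54-fold above WT in *nac1L* (log2 0.62) and 2.16-fold above it in *nac25* (log2 1.11), calculated from the authors' deposited table.

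The direct comparison asked whether the mutants differed from each other. Of 6 members tested, 2 were called, beside 12.3% of all tested genes. ASN1 was 1.31-fold higher in *nac25* than in *nac1L* (log2 0.39, interval 0.17 to 0.62, q = 0.00437) in the authors' deposited table, where 0.609% of all tested genes were called higher and 11.7% lower. Only 1.53% of tested genes had a higher fold there than ASN1. GDH2 was 1.36-fold lower in *nac25* (log2 -0.44, interval -0.74 to -0.14, q = 0.0208) in the authors' deposited table, a call lost after centring (log2 -0.24, q = 0.30). Among the other family genes ASN3 was lower in *nac25* (log2 -0.39, q = 0.00625) in the authors' deposited table, also without a call after centring (log2 -0.19, q = 0.274).

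ASN2 (log2 -0.36, interval -0.66 to -0.05, q = 0.069) and GLN1-1 (log2 -0.26, interval -0.50 to -0.03, q = 0.0857) did not pass between the mutants in the authors' deposited table. The intervals of GLT1 (-0.31 to 0.17) and GLN1-3 (-0.22 to 0.21), from the authors' deposited table, show the range of differences that these data allow. GLN2 (log2 -0.40), GLN1-2 (-1.09), GLU1 (-0.96) and GLN1-4 (0.28) had no test between the mutants in the authors' deposited table.

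**Figure D3:**
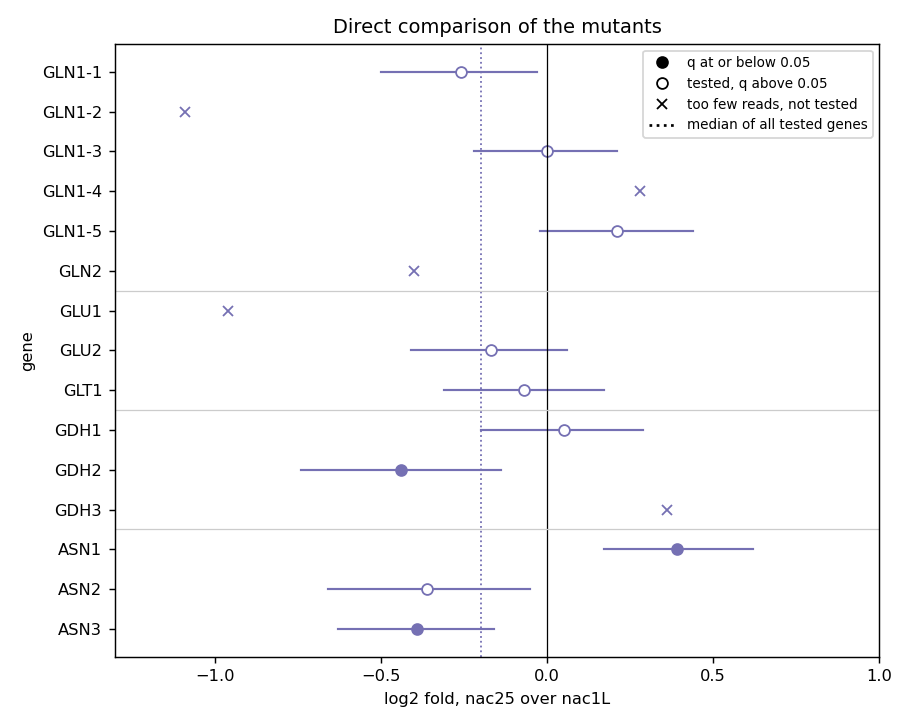
Log2 fold of *nac25* over *nac1L* (x axis) for the 15 family genes (y axis), with the implied 95% interval as a line and the symbols defined in the legend. ASN1 lies right of 0 at 0.39, GDH2 and ASN3 lie left of it at -0.44 and -0.39, and the dotted line marks the median of all tested genes at -0.20.

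Genes that feed the cycle or use its products were described from 7 lists with 47 genes, of which 45 had a row and bZIP11 and bZIP53 were not analysed here. Of 37 tested genes 4 were higher and 11 lower in *nac1L*, and 3 higher and 17 lower in *nac25*. All tested genes were called higher in 9.62% and lower in 18.9% of cases in *nac1L*, and in 6.25% and 32.8% in *nac25*. After centring the counts were 5 higher and 11 lower in *nac1L*, and 7 higher and 8 lower in *nac25*. Over all tested genes they were 2269 higher and 2775 lower of 18233 in *nac1L*, and 2861 and 2681 of 18155 in *nac25*. The medians of the 37 listed genes, -0.04 and -0.32, lie close to those of all tested genes (-0.07 and -0.27). A few genes among them had much larger folds than any member. Between the mutants 5 of 36 tested genes were called, each lower in *nac25*, beside 11.7% of all tested genes called lower and 0.609% higher. None of these 5 listed genes kept its call after centring. They were ASP1, DIN10 (log2 -0.55, q = 0.0104), cICDH (log2 -0.40, q = 0.00409), RFNR1 (log2 -0.36, q = 0.0287) and ASP2 (log2 -0.35, q = 0.0187) in the authors' deposited table.

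Transcripts of all 3 listed enzymes that reduce nitrate to nitrite and ammonium were lower in each mutant, beside 18.9% and 32.8% of all tested genes. Nitrate reductase NIA1 was 4.51-fold and nitrite reductase NIR1 8.46-fold lower in *nac1L*, and NIA2 was 27.0-fold lower there and 45.1-fold lower in *nac25*, all with q = 0.000463 in the authors' deposited table. NIA2 had too few reads for a test between the mutants, so its calls were reached through the reads in WT. Its log2 intervals were wide, -7.05 to -2.46 in *nac1L* and -8.15 to -2.84 in *nac25*, with p at its floor. RFNR1, a ferredoxin reductase of non-green plastids that provides electrons to nitrite reductase and GOGAT, was 2.11-fold lower in *nac1L* (log2 -1.08) and 2.72-fold lower in *nac25* (log2 -1.44) in the authors' deposited table. RFNR2 was also lower by the authors' deposited table (log2 -0.56, q = 0.00702, and -0.50, q = 0.0287), but in *nac25* not after centring (q = 0.428).

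In all, carbon and reductant supply had 1 gene higher and 4 lower of 9 tested in *nac1L*, and 1 higher and 6 lower in *nac25*, or 1 and 1 in *nac25* after centring. These stand beside 9.62% of all tested genes called higher and 18.9% lower in *nac1L*, and 6.25% and 32.8% in *nac25*. DIT1, the plastid carrier that brings in 2-oxoglutarate, was 1.34-fold lower in *nac1L* (q = 0.0029) and 1.63-fold lower in *nac25* (q = 0.000463) in the authors' deposited table, the latter call lost after centring (q = 0.054). DIT2.2, a related dicarboxylate carrier gene, was higher in each mutant (log2 0.59 in both, q = 0.000463) in the authors' deposited table. PPC2, a phosphoenolpyruvate carboxylase that replenishes carbon skeletons, was 1.42-fold lower in *nac1L* (q = 0.000463) and 1.45-fold lower in *nac25* (q = 0.000463) by the authors' deposited table, with the latter call lost after centring (q = 0.139). The cytosolic isocitrate dehydrogenase gene cICDH, which makes 2-oxoglutarate, was lower in *nac25* (log2 -0.53, q = 0.000463), again not after centring (q = 0.143), and did not pass in *nac1L* (log2 -0.13, q = 0.438) in the authors' deposited table.

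Ammonium transport and sensing had 3 tested genes of 7. GLB1, the plastid PII protein that senses glutamine, was 1.5-fold lower in *nac1L* and 1.72-fold lower in *nac25* (q = 0.000463 in both) in the authors' deposited table. The transporter gene AMT2 was lower in *nac25* (log2 -0.67, q = 0.000463; after centring -0.40, q = 0.0643) and had a log2 fold of -0.38 in *nac1L* (q = 0.0555) in the authors' deposited table. AMT1-1 did not pass in either mutant, and AMT1-2 to AMT1-5 had too few reads.

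The aspartate that asparagine synthetase consumes is made by aspartate aminotransferase. Among 6 tested aminotransferase genes 1 was lower in *nac1L* and 3 in *nac25*, or 1 in *nac25* after centring. All tested genes were called lower in 18.9% of cases in *nac1L* and 32.8% in *nac25*. The mitochondrial ASP1 was 1.81-fold lower in *nac1L* (log2 -0.86) and 2.54-fold lower in *nac25* (log2 -1.34) in the authors' deposited table, and 1.40-fold lower in *nac25* than in *nac1L* (q = 0.000463 throughout), although the difference between the mutants was not called after centring (q = 0.0722). The cytosolic ASP2 (log2 -0.37, q = 0.0111) and the gene ASP3 (log2 -0.31, q = 0.0466) were lower in *nac25* in the authors' deposited table and lost their calls after centring (q = 0.633 and 0.858).

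On the side of breakdown, 1 of 6 tested genes was higher and 1 lower in each mutant. The shares of all tested genes were 9.62% higher and 18.9% lower in *nac1L*, and 6.25% and 32.8% in *nac25*. After centring 2 were higher in *nac1L*, ERD5 and the GABA transaminase gene POP2 (log2 0.39, q = 0.023), and 3 in *nac25*, ERD5, POP2 (log2 0.48, q = 0.00472) and the arginase gene ARGAH1 (log2 0.39, q = 0.0107), with 1 lower in each. Over all tested genes the centred calls were 2269 higher and 2775 lower of 18233 in *nac1L*, and 2861 higher and 2681 lower of 18155 in *nac25*. ASPGB1, an asparaginase that frees ammonium from asparagine, was 10.4-fold lower in *nac1L* (log2 -3.39) and 15.5-fold lower in *nac25* (log2 -3.96), both with q = 0.000463 in the authors' deposited table. The other asparaginase gene, ASPGA1, did not pass (log2 -0.11, q = 0.624, and -0.32, q = 0.135) in the authors' deposited table. ERD5, a mitochondrial proline dehydrogenase, was 1.58-fold higher in *nac1L* and 1.46-fold higher in *nac25* (q = 0.000463 in both) in the authors' deposited table. Of the carbamoyl phosphate synthetase genes, which use glutamine for arginine and pyrimidines, CARA was lower in *nac25* (log2 -0.41, q = 0.00321; after centring -0.15, q = 0.429) and CARB did not pass in the authors' deposited table.

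Most of the tested genes that share the dark and sugar-starvation response of ASN1, itself also called DIN6, were not called in either mutant against WT. Of 8 tested, 2 were higher, 1 lower and 5 not called in *nac1L*, and 1 higher, 1 lower and 6 not called in *nac25*. All tested genes were called higher in 9.62% and lower in 18.9% of cases in *nac1L*, and in 6.25% and 32.8% in *nac25*. After centring the counts were unchanged in *nac1L* and 3 higher and 1 lower in *nac25*, where BCAT2 and the beta-glucosidase gene DIN2 (log2 0.49, q = 0.0391) joined DIN1. Over all tested genes 2861 of 18155 were called higher in *nac25* after centring. DIN1 was 2.22-fold higher in *nac1L* (q = 0.000463) and 1.74-fold higher in *nac25* (q = 0.00124) in the authors' deposited table. BCAT2, a branched-chain aminotransferase, was higher in *nac1L* (log2 0.69, q = 0.0263), with a log2 fold of 0.58 in *nac25* (q = 0.0634; after centring q = 0.00566), in the authors' deposited table. DIN10, a raffinose synthase gene, was 8.95-fold lower in *nac1L* and 13.1-fold lower in *nac25* (q = 0.000463 in both) in the authors' deposited table.

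**Figure D4:**
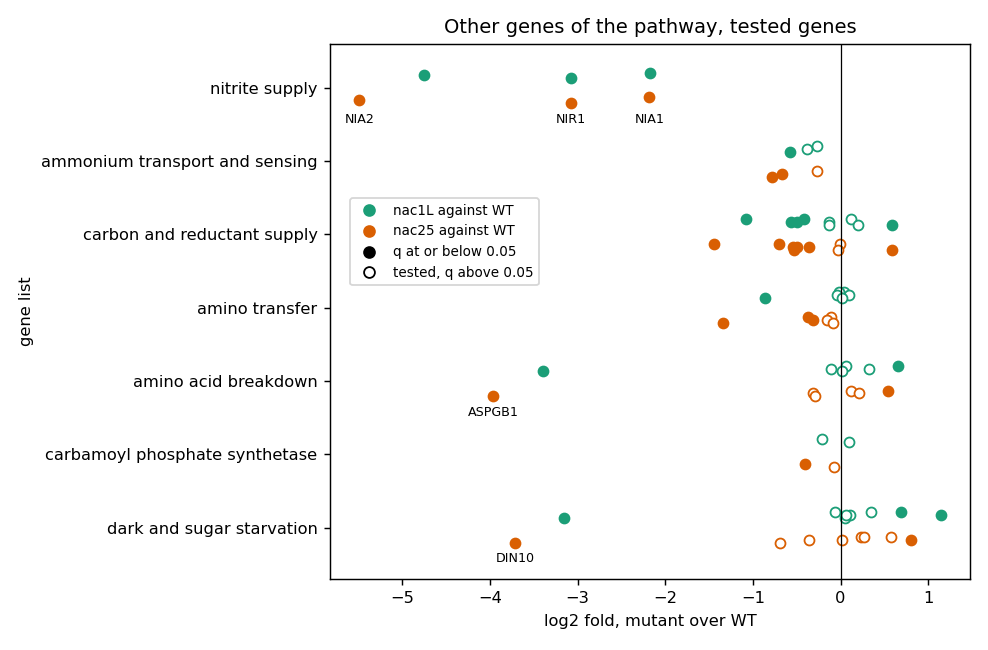
Log2 fold of mutant over WT (x axis) for the tested genes of 7 lists around ammonium assimilation (y axis), with filled circles at q at or below 0.05 and open circles above it. NIA2, NIR1, NIA1, ASPGB1 and DIN10 lie far left of 0, with folds from -2.17 to -5.49, and the other genes lie between -1.44 and 1.15.

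Close copies within the families could share reads, so their transcripts in the TAIR10.1 reference were compared. GLN1-1 and GLN1-2 were the most alike of the glutamine synthetase pairs, with 87.5% of aligned coding bases identical, and ASN1 and ASN2 had 71.3%. ASN2 and ASN3 had 86.6%. No stretch of 50 bases was shared exactly between any 2 glutamine synthetase, GOGAT or asparagine synthetase transcripts compared. GDH1 and GDH3 shared 10 of 1802 such windows. Only exact matches were counted, so the windows cannot show whether reads aligned with mismatches were shared. The annotated span of ASN1 overlapped an opposite-strand gene by 11 bases and that of GLU1 by 79, GLT1 overlapped a same-strand neighbour by 127 bases, and GDH1 overlapped AT5G18180 on the opposite strand by 166. AT5G18180 was itself lower in *nac1L* (log2 -0.96) and *nac25* (log2 -1.39) in the authors' deposited table. The same-strand neighbour of GLT1 had log2 folds of 0.16 in *nac1L* (q = 0.33) and 0.07 in *nac25* (q = 0.71) in the authors' deposited table. The part of overlapping reads in the folds of GDH1 and GLT1 was not tested. Libraries were stranded, per the labels, but the counting setting is not given in the sources used here.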

How the data were processed

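Per the submitters' processing notes TopHat2 2.1.0 and Cuffdiff 2.2.1.3 were the tools, with FastQC 0.11.5. The sources used here do not name the build, annotation or scaling. The deposited log2 fold, p-value and q-value of each gene are the authors' own, per the file headers, with folds read as second genotype over first. Adjusting the 54131 deposited p-values together by Benjamini-Hochberg gave the deposited q-values within 5.27e-07. Replicates are biological, per the labels, and depth is unknown. The call was q at or below 0.05, as the design set for such a table. Members, lists and alternatives were chosen with earlier results of these data known. The text names all 10 members, the 5 other family genes and up to 4 called genes of largest fold per other list and comparison. Genes outside that rule (ASPGA1, POP2, ARGAH1, DIN2, AMT1-1 to AMT1-5, CARB, bZIP11, bZIP53, AT5G18180 and cICDH against WT) were named after their values were seen.

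A standard error was taken as the fold divided by the normal quantile of its p. Centring subtracted the median of tested genes and recomputed p with that error, adjusted over all tests, which understates significance at the floor of p. These steps were checked on simulated data whose p-values had no such floor and in which few genes were changed. How they perform at the floor was thus not checked. Alternatives were centring, q at or below 0.01, a 2-fold minimum and adjustment within a comparison. All 62 listed genes matched TAIR10.1 locus tags. Coding bases of the longest products were aligned and 50-base windows of the longest transcripts compared. Coordinates and sequences are left out, as the table names no build. Python 3.11.15, numpy 2.4.6, pandas 2.3.3, scipy 1.17.1, Biopython 1.88 and matplotlib 3.10.9 were used.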

Additional observations from a re-analysis of the deposited data

Results flagged for a closer look

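Of 10 tested family genes 3 were called between the mutants by the authors' own direct test, 1 higher and 2 lower in *nac25*. Of all tested genes 0.609% were called higher there and 11.7% lower. By the authors' deposited table, ASN1 had a log2 fold of 0.39 of *nac25* over *nac1L* (q = 0.00437), with both mutants above WT. GDH2 had -0.44 (q = 0.0208) in the authors' deposited table, with both mutants below WT. ASN3 had -0.39 (q = 0.00625) in the authors' deposited table, with a call against WT in *nac25* alone. The median of all tested genes in this comparison was -0.20, and after centring on it only ASN1 of these 3 kept its call (log2 0.59, q = 2.21e-05).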

How the results depend on the processing

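A 2-fold minimum left 1 member called in *nac1L* (0 higher, 1 lower: GLN2), 4 in *nac25* (1 higher, 3 lower) and 0 between the mutants (0 higher, 0 lower). Between the mutants 1 member was called at q at or below 0.01, after centring or with adjustment within the comparison alone, in each case ASN1, with 0 lower. All other counts of called members stayed within 1.5 times. Shares of all tested genes were not computed at the 2-fold minimum, at q at or below 0.01 or with adjustment within the comparison. The counts of members at these settings thus cannot be set against all genes. Centring turned the sign of 4 folds without a call: GLN1-3 in *nac25* against WT (0.18) and between the mutants (0.20), and between the mutants GLT1 (0.13) and GLU2 (0.03). Of 34 tested folds of the 15 family genes, centring ended the call of 5 and gave a call to 2 (GDH1 in *nac1L*, GLN1-5 between the mutants), q at or below 0.01 ended 6, the 2-fold minimum 16 and adjustment within the comparison 1. The centred counts over all tested genes were 2269 higher and 2775 lower in *nac1L*, against 1754 and 3449 as deposited. In *nac25* they were 2861 and 2681 after centring, against 1135 and 5951, and between the mutants 482 and 276, against 108 and 2078. Leaving out replicates was not run, because the table holds no value per library. No paired analysis was possible because the table carries no library or replicate number. Genes with few reads, such as GLN1-2 and GLN2, have wide intervals even where called.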
